A study of Mus musculus with 4 samples.

Results

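The 10 genes followed here belong to TGF-beta and activin signalling and were measured in mouse T cells grown with and without the cytokine TL1A: the activin subunit gene Inhba, the ligand gene Tgfb1, the receptor genes Tgfbr1 and Tgfbr2, the SMAD genes Smad3 and Smad7, the feedback genes Skil and Pmepa1, and the T cell genes Ctla2a and Ctla2b. They were taken by name, with no expression value in the rule, and make up 10 of the 23480 genes in each library. All 10 were found by their Entrez identifiers and passed the filter on low values. The series holds 4 RNA-seq libraries of T cells, 2 from a Th9 condition and 2 from a condition labelled Th9+TLA1. TGF-beta is part of Th9 culture, which both conditions share. The series title writes the cytokine as TL1A, and both spellings are read here as the same factor. The labels give no strain, genotype, age, culture time or cytokine dose, and do not tie the replicates to separate mice or cultures. The p-values therefore measure only how far these libraries spread, and that spread may be technical.

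As background, TGF-beta binds the type II receptor TGFBR2, which recruits and phosphorylates the type I receptor TGFBR1. TGFBR1 then phosphorylates SMAD2 and SMAD3, which enter the nucleus with SMAD4. Activin A, a dimer of the protein encoded by Inhba, uses receptors of its own but the same SMAD2 and SMAD3. In T cells TGF-beta takes part in the differentiation of Th9 cells, which make interleukin 9, and of regulatory T cells, whose lineage factor is FOXP3.

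With TL1A, Inhba and Ctla2a rose, by 4.27-fold and 1.98-fold. None of the 10 fell past the test. Tgfbr1 had the most negative difference, a level 1.59-fold lower that did not pass, while Tgfbr2 lay slightly above its control level. The feedback genes Pmepa1, Smad7 and Skil did not pass. The 2 that passed, out of 10, compare with 1.14% of all 10324 genes tested in either direction and 0.891% called higher (limma, Benjamini-Hochberg adjusted p under 0.05). At an unadjusted p under 0.05 the members numbered 5 of 10, beside 16.7% of all genes. On recovered reads, edgeR called 1 of the 10 (Inhba), beside 1.07% of all genes. DESeq2 and limma voom, also on recovered reads, called the same 2 as limma, beside 3.23% and 1.26%. The DESeq2 share is of the 8522 genes to which it gave an adjusted p. In the lower direction limma, edgeR, DESeq2 and limma voom called 0 of the 10, with 1 (Tgfbr1) at an unadjusted p under 0.05 in each, and limma called 0.252% of all genes lower. With TL1A, 7 of the 10 lay above both Th9 libraries after scaling, 1 lay below both and 2 overlapped; of all tested genes, 47.4% had groups apart, 23.7% above and 23.7% below. The median log2 fold change was 0.55 for the 10 genes and -0.01 for all tested genes. These genes were listed with earlier results of the same libraries known, so their counts are a description.

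Stretches of DNA show how alike Ctla2a and Ctla2b are, and what lies before an annotated start of each and of Inhba. Ctla2a (chromosome 13, 60934155 to 60936625 of mm10) and Ctla2b (chromosome 13, 60895351 to 60897934) lie beside each other on the minus strand and encode small inhibitors of cysteine proteases. Their coding sequences, taken from GENCODE M21 on GRCm38, the assembly of mm10, were identical at 326 of 339 aligned bases, 96.2%. The Ctla2a coding sequence used has 411 bases and that of Ctla2b 339, so part of Ctla2a lies outside this share. The 120 aligned coding bases with the most differences hold 7, shown in capitals. They are spliced from exons within 60935409 to 60935622 for Ctla2a and 60896100 to 60896313 for Ctla2b.
Ctla2a: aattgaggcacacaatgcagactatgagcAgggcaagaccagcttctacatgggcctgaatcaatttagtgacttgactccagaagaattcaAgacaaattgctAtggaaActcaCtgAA
Ctla2b: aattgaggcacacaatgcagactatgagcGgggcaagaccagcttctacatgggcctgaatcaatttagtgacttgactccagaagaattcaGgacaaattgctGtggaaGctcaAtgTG

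A window of 50 bases was common to the protein-coding transcripts of both genes in 7.1% of the windows of Ctla2a and 8.25% of those of Ctla2b, and no window of 100 bases was shared. The sources used here do not state the read length or how reads matching both copies were counted.

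The 250 bases before a RefSeq transcription start of each gene (GRCm38.p6) are also near copies, identical at 208 of 228 aligned bases, 91.2%. Each holds the AP-1 motif TGANTCA, the kind of site that BATF and JUN family proteins bind, and the SMAD box CAGAC, which reads GTCTG on the other strand. Both motifs were searched on both strands, no match of one overlapped a match of the other, and matches are in capitals. Ctla2a has another RefSeq start, not shown; the stretch before the first one is chr13:60936626-60936875, minus strand, and the Ctla2b stretch chr13:60897448-60897697, minus strand. The Ctla2b stretch lies within the gene span given above, which reaches further upstream than the start used here.
Ctla2a: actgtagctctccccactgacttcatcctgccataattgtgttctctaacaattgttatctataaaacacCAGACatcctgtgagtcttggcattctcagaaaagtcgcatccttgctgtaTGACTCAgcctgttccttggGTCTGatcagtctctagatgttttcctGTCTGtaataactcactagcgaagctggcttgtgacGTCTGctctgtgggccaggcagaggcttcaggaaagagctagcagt
Ctla2b: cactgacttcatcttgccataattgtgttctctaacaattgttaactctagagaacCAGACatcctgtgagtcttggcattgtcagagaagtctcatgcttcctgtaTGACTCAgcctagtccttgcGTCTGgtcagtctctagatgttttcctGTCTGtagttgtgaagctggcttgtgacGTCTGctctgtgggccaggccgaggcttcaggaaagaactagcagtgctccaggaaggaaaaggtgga

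The AP-1 match starts 129 bases before the start of Ctla2a and 143 before that of Ctla2b, and each gene has 4 SMAD boxes. Of 32851 RefSeq promoters, 6.75% held an AP-1 match in the same 250 bases, 42.2% held at least 1 SMAD box and 0.475% held 4 or more. Because the copies share their sequence, the pair counts as 1 instance. The palindromic element GTCTAGAC was in neither, and in 0.167% of all promoters. A match describes letters, not binding, which was not measured here.

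**Figure D1:**
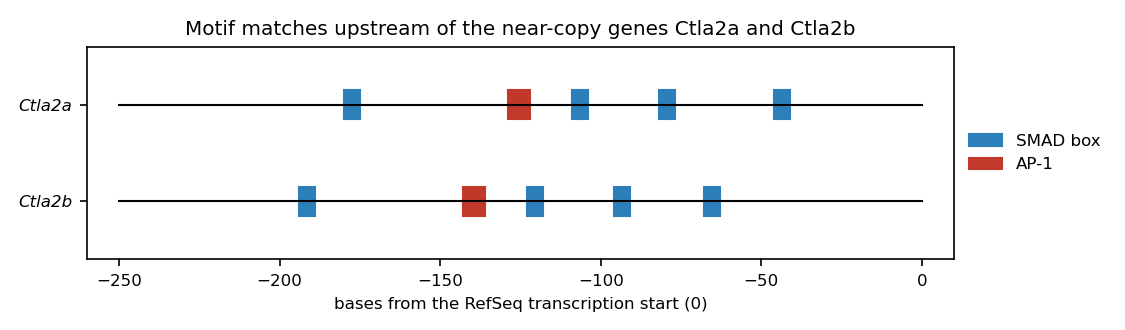
Matches to the AP-1 motif (red, 1 per gene) and the SMAD box (blue, 4 per gene) in the 250 bases before the RefSeq start of Ctla2a and Ctla2b; the x axis gives bases from the start. The order of the matches is the same in both genes.

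The same window of Inhba, shown because that gene had the largest fold of the 10, is chr13:16011601-16011850, plus strand. It lies before the start in the promoter table but inside the annotated gene span (16004256 to 16031609), which begins further upstream, and the bases before that earlier end were not examined. The window held none of the 3 motifs, which says only that those letters are not in it.
Inhba: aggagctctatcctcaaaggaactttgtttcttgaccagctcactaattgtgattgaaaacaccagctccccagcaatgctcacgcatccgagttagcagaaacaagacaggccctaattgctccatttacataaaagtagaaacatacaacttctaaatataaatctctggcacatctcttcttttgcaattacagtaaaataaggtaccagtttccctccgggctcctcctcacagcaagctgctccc

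Promoter entries were matched for 7 of the 10 genes. No entry was matched for Smad7, Skil and Pmepa1. In the same windows, Tgfbr2 held 1 SMAD box, Tgfb1 and Smad3 held none of the 3 motifs, and Tgfbr1 held none at its first start and 1 SMAD box at its second.

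The libraries held 4041633 and 3167270 reads in genes for Th9 and 2979482 and 3081187 for Th9+TLA1, recovered from deposited CPM, which scale each library to the same total. A value of 0 allows a level of up to 3 reads, or 0.742 to 1.01 CPM, by counting error alone. All 8 matched T cell markers had reads in every library, with summed levels of 2846 to 3286 CPM in Th9 and 3605 to 3785 in Th9+TLA1. Lyz2, Csf1r and Cd14 of monocytes and macrophages, Pf4, Ppbp and Gp9 of platelets, and Ncr1 and Klrb1c of NK cells had 0 reads in all 4 libraries. The summed monocyte and macrophage list was 0.316 to 2.23 CPM in Th9 and 0 with TL1A, and the platelet list was at most 0.495 CPM. The summed list of 5 B cell markers was 10.4 to 12.9 CPM in Th9 and 28.9 to 29.2 with TL1A, most of it Cd79b, with Ms4a1 and Pax5 at 0. The 5 dendritic cell markers summed to 225 to 288 CPM in Th9 and 283 to 347 with TL1A, most of it Cd74 and H2-Ab1. Of the others, Itgax had 0 and 0 reads in Th9 and 5 and 0 with TL1A. Flt3 had 1 and 0 reads in Th9 and 5 and 5 with TL1A, and Zbtb46 had 22 and 9 in Th9 and 36 and 22 with TL1A. Cd8b1 of CD8 T cells had 27 and 42 reads in Th9 and 27 and 31 with TL1A, and Cd8a had 5 and 0, then 2 and 0. Of 6 mast cell and basophil markers, 5 had no read, and Kit had 0 and 16 in Th9 and 15 and 0 with TL1A. Of 4 fibroblast markers, 3 had no read, and Col1a1 had 0 and 0 in Th9 and 3 and 3 with TL1A. The part of any of these marker levels in the results was not tested. In bulk RNA, fewer cells making a transcript and less of it per cell cannot be told apart.

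Among the ligands, Inhba (Entrez 16323, chromosome 13, 16004256 to 16031609 of mm10) measured 8.66 and 13.6 CPM in Th9 and 46.7 CPM in each library with TL1A, from 35, 43, 139 and 144 reads. Both Th9 libraries were low and both libraries with TL1A were high and close together. The log2 fold change was 2.09 ± 0.38 (SE, n = 2 per group, limma adjusted p = 0.0257), ranking 62 of 10324 genes by p. Its 95% interval ran from 2.39-fold to 7.61-fold. Testing all genes with no filter ended the call (limma adjusted p = 0.0806). With the filter re-run, leaving out either Th9 library or TL1A replicate 2 ended it. On the same 10324 genes, leaving out Th9 replicate 1 or TL1A replicate 1 ended it, so the libraries it rested on depended on the genes tested. The log2 fold change stayed between 1.75 and 2.44 in these fits. The locus overlaps B230303A05Rik, and the kit does not mark strand. Of the other members, Tgfbr1 overlaps Gm32435, Tgfbr2 overlaps Gm31292, Smad3 overlaps Gm51710 and Smad7 overlaps Gm41776. For genes outside the 10, overlaps are not all given.

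Tgfb1, which encodes the main TGF-beta of lymphocytes, had 71.8 and 107 CPM in Th9 and 112 and 122 CPM with TL1A. The groups did not overlap, but Th9 replicate 2 lay close to the TL1A libraries. The log2 difference, 0.50 ± 0.25, missed the threshold (limma adjusted p = 0.336), with a 95% interval from 0.975-fold to 2.05-fold. Within each library Inhba stood at 0.121 and 0.127 of the CPM of Tgfb1 in Th9, and at 0.416 and 0.384 with TL1A.

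Tgfb3, which encodes another TGF-beta, had 26.0 and 47.7 CPM in Th9 and 59.4 and 28.9 with TL1A, and the groups overlapped (limma adjusted p = 0.752). Of 26 listed genes for ligands and their activation, 8 passed the filter and 9 had no read in any library, among them the activin and inhibin subunit genes Inhbb, Inhbc and Inhbe. Inha, the inhibin alpha subunit gene, had 4 and 1 reads in Th9 and 6 and 0 with TL1A. Inhba was the 1 gene of the 8 that limma called, beside 1.14% of all genes, and the median log2 fold change of the 8 was 0.32. Furin, which encodes a protease that matures TGF-beta precursors, had 219 and 254 CPM in Th9 and 325 and 236 with TL1A, and those groups overlapped (limma adjusted p = 0.474). Lrrc32, which encodes the latent TGF-beta anchor GARP of regulatory T cells, had 23.3 and 20.8 CPM in Th9 and 18.5 and 25.6 with TL1A.

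**Figure D2:**
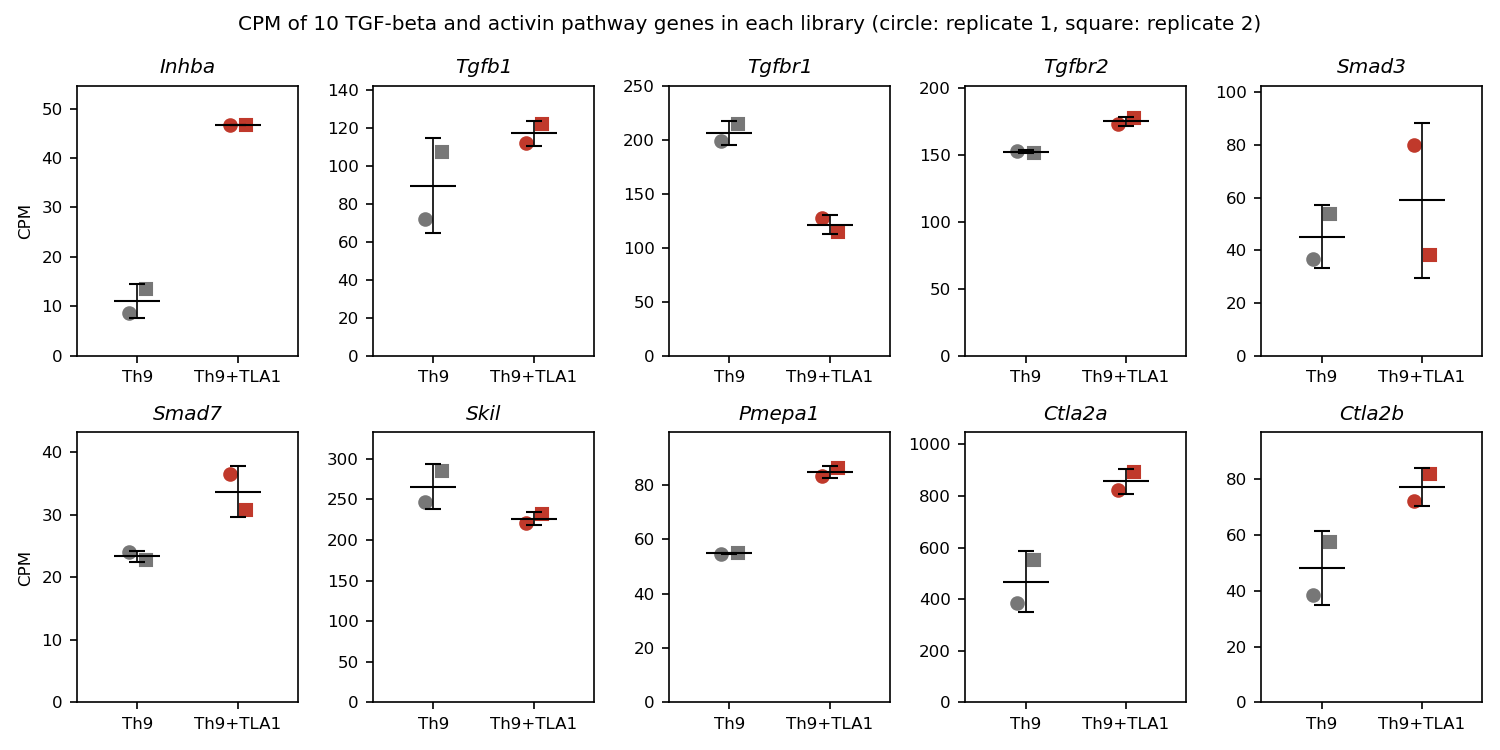
Deposited CPM of the 10 genes in each library (y axis from 0; grey, Th9; red, Th9+TLA1; circles, replicate 1; squares, replicate 2), with the mean and SD of each group (n = 2). Inhba sits at 8.66 and 13.6 CPM without and 46.7 CPM with TL1A, Tgfbr1 lies lower with TL1A in both libraries, and Smad3 overlaps.

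Of the receptors, Tgfbr1 (Entrez 21812, chromosome 4, 47353222 to 47414926) had 199 and 215 CPM in Th9 and 128 and 115 CPM with TL1A. Every library with TL1A lay below every library without it. The log2 fold change of -0.67 ± 0.19 did not pass over all genes (limma adjusted p = 0.127), and its 95% interval ran from -1.09 to -0.25. It was the 1 gene of the 10 whose scaled groups were apart in the lower direction. Tgfbr2, its type II partner, had 153 and 152 CPM in Th9 and 173 and 178 CPM with TL1A. That is a log2 fold change of 0.29 ± 0.18 (limma adjusted p = 0.461; 95% interval 0.926-fold to 1.62-fold). The Tgfbr2 to Tgfbr1 ratio of CPM was 0.771 and 0.707 in Th9 and 1.35 and 1.54 with TL1A. Both TL1A libraries had to lie above both Th9 libraries, since Tgfbr2 was higher and Tgfbr1 lower in CPM with TL1A. Like the other ratios given here, this ratio was formed after the values were seen and is not corrected for the length of the genes. With 2 libraries against 2, an exact two-sided permutation test cannot go below p = 0.333.

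Among 14 listed receptors and co-receptors, 9 passed the filter and 0 were called by limma, edgeR, DESeq2 or limma voom. At an unadjusted limma p under 0.05 there were 2 of the 9, beside 16.7% of all genes. The median log2 fold change of the 9 was 0.22. Tgfbr3, the co-receptor betaglycan, had 203 ± 44.5 CPM in Th9 and 248 ± 34.7 with TL1A (SD, n = 2; limma adjusted p = 0.394). Acvr1, a type I receptor gene for BMPs and activins, had 2.41 ± 0.610 and 7.94 ± 2.06 CPM (limma adjusted p = 0.280), and its locus overlaps Upp2. The receptor genes of activin A itself had few reads. Acvr1b, its type I receptor gene, had 13 and 6 reads in Th9 and 13 and 4 with TL1A, and Acvr2b, a type II receptor gene, had 0 and 4 reads in Th9 and 2 and 1 with TL1A. Acvr2a, the other type II receptor gene, had 129 and 13 reads in Th9 and 12 and 26 with TL1A, so 1 Th9 library stood apart from the other 3 (limma adjusted p = 0.643). The Acvr2a locus overlaps Orc4.

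**Figure D3:**
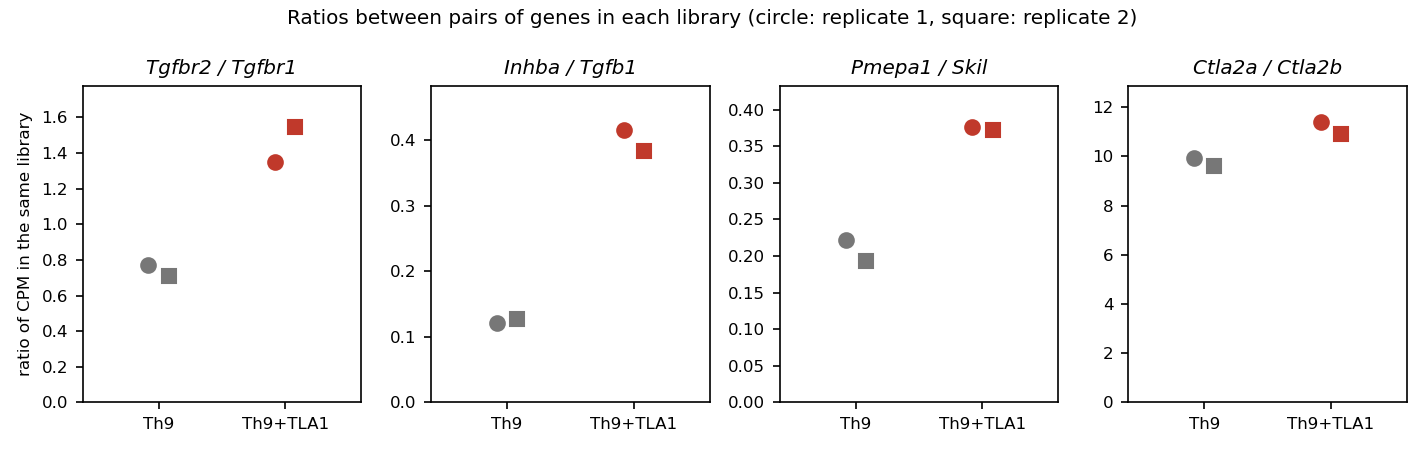
Ratio of the CPM of 2 genes in the same library (y axis from 0; grey, Th9; red, Th9+TLA1; circles, replicate 1; squares, replicate 2). The Tgfbr2 to Tgfbr1 ratio is 0.771 and 0.707 without and 1.35 and 1.54 with TL1A. The Ctla2a to Ctla2b ratio is 9.94 and 9.61 without and 11.4 and 10.9 with TL1A. Differences in these ratios were not tested.

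Smad3, the transducer gene, had 36.9 and 53.7 CPM in Th9 and 79.9 and 38.3 CPM with TL1A. TL1A replicate 1 was the highest and replicate 2 lay between the Th9 libraries. The log2 fold change of 0.40 ± 0.36 (limma adjusted p = 0.634) became -0.13 without TL1A replicate 1. Of 11 listed SMAD genes and partners 8 passed the filter, with a median log2 fold change of 0.12. Limma, edgeR, DESeq2 and limma voom called 0 of the 8. At an unadjusted p under 0.05 each had 2 of the 8, where limma had 16.7% of all genes. Smad4, the common partner, had 100 and 181 CPM in Th9 and 161 and 140 with TL1A (limma adjusted p = 0.702). Smad5, a SMAD of the BMP branch, had 11.0 ± 4.79 and 27.1 ± 10.8 CPM (SD, n = 2; log2 fold change 1.32, limma adjusted p = 0.190). Trim33, which encodes a ubiquitin ligase that acts on SMAD complexes, had 28.5 and 27.2 CPM in Th9 and 46.7 and 43.5 with TL1A (limma adjusted p = 0.232).

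None of the 3 feedback genes passed the test, and differences between them were not tested. Smad7, which encodes the inhibitory SMAD that blocks TGFBR1, had 24.0 and 22.7 CPM in Th9 and 36.6 and 30.8 CPM with TL1A. The log2 fold change was 0.59 ± 0.33 (limma adjusted p = 0.400), with groups that did not overlap. Pmepa1, which encodes a membrane protein that binds SMAD2 and SMAD3 and is itself induced by TGF-beta, had 54.7 and 54.9 CPM in Th9 and 83.2 and 86.3 CPM with TL1A. Replicates of Pmepa1 were close in both groups, and the log2 fold change of 0.71 ± 0.23 did not pass over all genes (limma adjusted p = 0.162; 95% interval 1.15-fold to 2.32-fold). Skil, which encodes SnoN, a repressor of SMAD complexes, had 246 and 285 CPM in Th9 and 221 and 232 CPM with TL1A. The Skil groups were apart in CPM, where 29.0% of all genes were lower with TL1A in both libraries, but overlapped after scaling, with a log2 fold change of -0.14 ± 0.18 (limma adjusted p = 0.770; 95% interval 0.689-fold to 1.20-fold). The Pmepa1 to Skil ratio was 0.222 and 0.193 in Th9 and 0.377 and 0.372 with TL1A. The groups of this ratio had to lie apart, since Pmepa1 was higher and Skil lower in CPM with TL1A.

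Across 22 listed inhibitors and feedback genes 18 passed the filter, with a median log2 fold change of 0.11. Limma, edgeR, DESeq2 and limma voom called 0 of the 18. At an unadjusted p under 0.05 each had 3 of the 18, where limma had 16.7% of all genes. Fkbp1a, which encodes FKBP12, a protein that holds type I receptors inactive, had 798 ± 47.6 CPM in Th9 and 987 ± 145 with TL1A (SD, n = 2; limma adjusted p = 0.297). Nedd4l, the gene of a ubiquitin ligase for SMAD2 and SMAD3, had 47.5 and 39.5 CPM in Th9 and 17.1 and 20.4 CPM with TL1A, a log2 fold change of -1.08 ± 0.33 (limma adjusted p = 0.144). Tgif2, a SMAD corepressor gene, had 16.1 and 18.0 CPM in Th9 and 22.5 and 27.9 with TL1A (limma adjusted p = 0.446).

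Ctla2a (Entrez 13024) had 384 and 552 CPM in Th9 and 822 and 891 CPM with TL1A. Both TL1A libraries lay above both Th9 libraries, which differed more from each other than the TL1A libraries did. The log2 fold change was 0.99 ± 0.21 (SE, n = 2 per group, limma adjusted p = 0.0464; 95% interval 1.44-fold to 2.71-fold). Ctla2b (Entrez 13025), the near copy shown above, measured 38.6 and 57.5 CPM in Th9 against 72.2 and 81.8 CPM with TL1A. The groups were apart, and the log2 difference of 0.78 ± 0.28 missed the threshold (limma adjusted p = 0.194). The Ctla2a to Ctla2b ratio of CPM was 9.94 and 9.61 in Th9 and 11.4 and 10.9 with TL1A. Its Ctla2b part rests on 156 and 182 reads in Th9 and 215 and 252 with TL1A. Whether the ratio differs beyond counting and amplification error was not tested. The Ctla2a call sits at the threshold, and was lost with edgeR's quasi-likelihood test on the recovered reads (adjusted p = 0.0676), with the reads of both copies summed (0.0526), and without TL1A replicate 2 (0.180) or either Th9 replicate (0.0828 and 0.0596). DESeq2 and limma voom called it (adjusted p = 0.00115 and 0.0281).

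**Figure D4:**
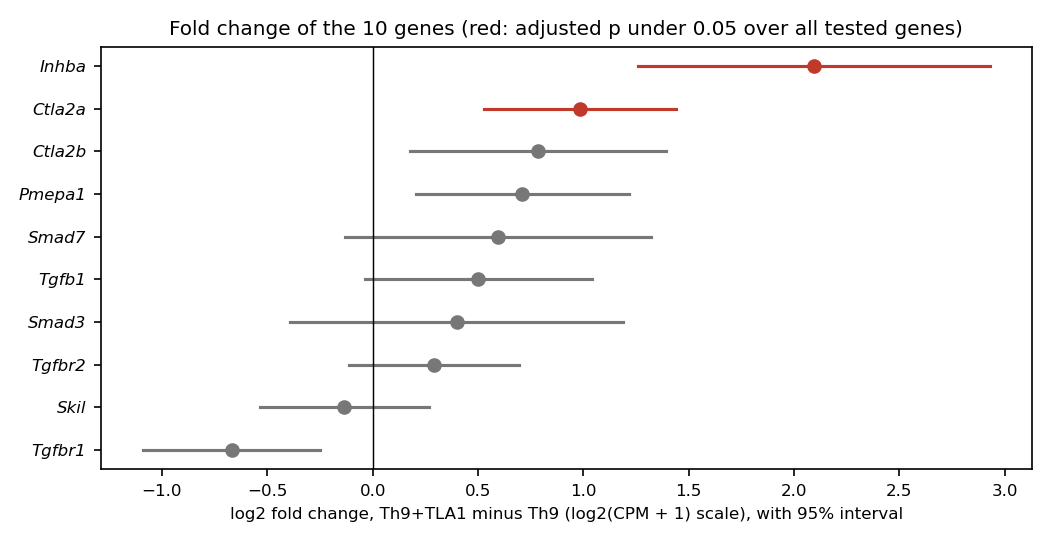
Log2 fold change, Th9+TLA1 minus Th9, of the 10 genes on the log2(CPM + 1) scale, with the 95% interval from limma (x axis); red marks an adjusted p under 0.05 over all tested genes. Inhba and Ctla2a are red, and the intervals of Smad7, Tgfb1, Smad3, Tgfbr2 and Skil include 0.

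Other genes known to respond to TGF-beta in T cells moved in both directions. Of 21 listed genes, which include Ctla2a and Ctla2b, 16 passed the filter. Limma called 3 of the 16, beside 1.14% of all genes: Ctla2a and Il9 rose and Foxp3 fell. At an unadjusted limma p under 0.05 there were 9 of the 16, beside 16.7% of all genes. Limma voom called the same 3 (1.26% of all genes) and edgeR called Foxp3 and Il9 (1.07%). DESeq2 called 5 (3.23% of the 8522 genes to which it gave an adjusted p). Further higher genes with DESeq2 were the cell cycle inhibitor gene Cdkn1a and the transcriptional regulator gene Id2 (limma adjusted p = 0.107 and 0.109). The median log2 fold change of the 16 was 0.56. Foxp3 had a log2 fold change of -2.10 ± 0.29 (limma adjusted p = 0.00617), on a locus that overlaps Ccdc22 and Flicr. Il9 had a log2 fold change of 0.98 ± 0.18 (limma adjusted p = 0.0261). Leaving out either Th9 library ended the Foxp3 call (limma adjusted p = 0.0804 and 0.0912), at log2 fold changes of -1.85 and -2.35. On the same 10324 genes, Foxp3 was called without Th9 replicate 2 (0.0125) and not without replicate 1 (0.111). The Il9 call ended with no filter (0.117) and on leaving out Th9 replicate 2 (0.0734) or either TL1A library (0.215 and 0.191), while the log2 fold change stayed between 0.92 and 1.04. On the same 10324 genes, Il9 was called without Th9 replicate 2 (0.00350) and not without TL1A replicate 1 (0.327) or 2 (0.125). Among 14 listed genes of SMAD-independent branches, including that through the kinase TAK1, 13 passed the filter. Their median log2 fold change was -0.05. Of these 13, 0 were called by limma, edgeR, DESeq2 or limma voom. At an unadjusted limma p under 0.05 there was 1 of the 13, beside 16.7% of all genes. Rhoa, which encodes a small GTPase, had 611 ± 77.8 CPM in Th9 and 678 ± 35.5 with TL1A (SD, n = 2; limma adjusted p = 0.538). Tab2 and Tab3, which encode adaptors of TAK1, had log2 fold changes of -0.64 ± 0.27 and -1.47 ± 0.72 (limma adjusted p = 0.263 and 0.334).

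**Figure D5:**
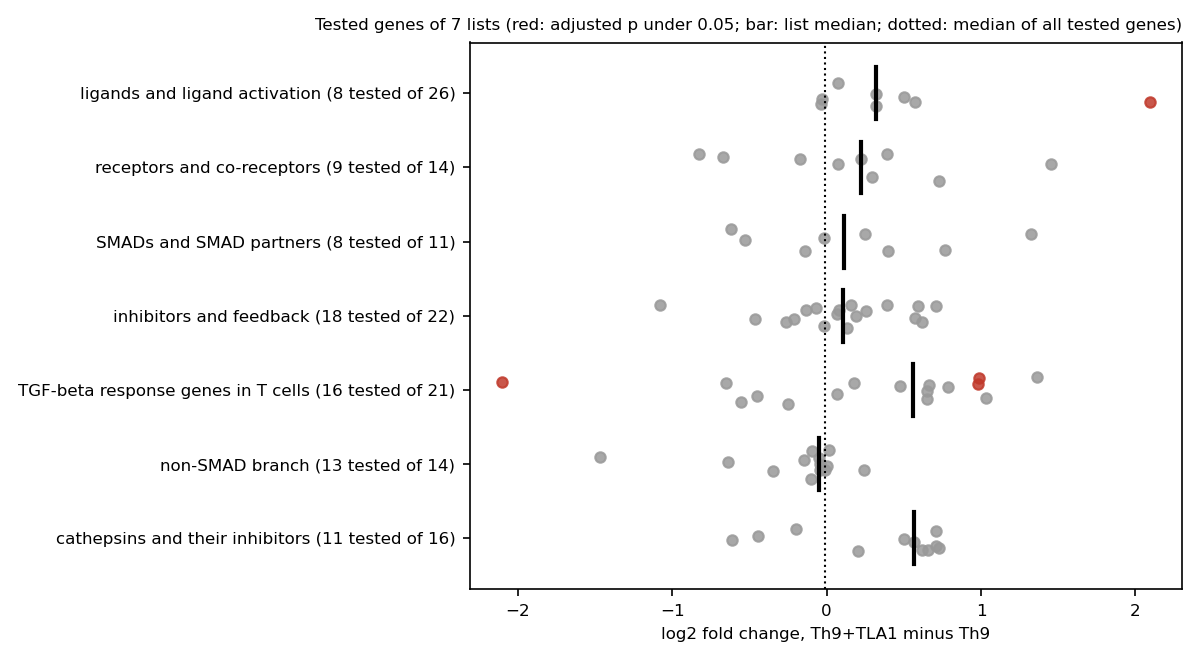
Log2 fold change, Th9+TLA1 minus Th9 (x axis), of each tested gene in 7 lists of the pathway and its neighbours; red points passed the test, black bars are list medians and the dotted line is the median of all tested genes (-0.01). Called genes are Inhba among the ligands and Ctla2a, Il9 and Foxp3 among the response genes.

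Levels of different genes were compared per kilobase of annotated exon (GENCODE M21, all transcripts of a gene merged). In Th9, Ctla2a stood highest, at 222 ± 56.5 CPM per kilobase (SD, n = 2), followed by Tgfbr1 at 31.7 ± 1.71, Ctla2b at 27.9 ± 7.74 and Skil at 27.4 ± 2.82. Tgfbr1 and Skil both lay within 1 SD of Ctla2b. Next came Tgfbr2 at 18.6 ± 0.133, which lay within 1 SD of Tgfb1 at 17.7 ± 4.95. Below them came Pmepa1 at 11.2 ± 0.0368, Smad3 at 8.17 ± 2.14, Smad7 at 5.17 ± 0.198 and Inhba at 1.74 ± 0.544. With TL1A, Ctla2a had 406 ± 23.2 and Ctla2b 44.7 ± 3.95 CPM per kilobase. Skil at 23.4 ± 0.818, Tgfb1 at 23.2 ± 1.35 and Tgfbr2 at 21.4 ± 0.403 now lay above Tgfbr1 at 18.6 ± 1.41, which lay within its SD of Pmepa1 at 17.3 ± 0.445. Smad3 followed at 10.7 ± 5.31. Inhba, lowest in Th9, reached 7.31 ± 0.00917 and stood level with Smad7 at 7.46 ± 0.900.

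The tested genes whose values over the 4 libraries were closest to those of Inhba were Kcnmb1, Copz2 and Abi3, at Euclidean distances of 0.200, 0.237 and 0.262 on the centred log2 scale. They were picked for this likeness, so their direction follows from the choice. Abi3, which encodes an adaptor of the actin cytoskeleton, had 23.5 and 38.5 CPM in Th9 and 101 and 109 with TL1A. Kcnmb1 had 0 and 1 reads in Th9 and 11 in each TL1A library, and Copz2 had 4 and 6 reads in Th9 and 23 and 22 with TL1A.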

How the data were processed

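Total RNA of T cells was amplified with a SMARTer Ultra Low Input kit, which does not mark strand, and sequenced on an Ion Torrent instrument, per the labels' protocols. HTSeq 0.5.4, edgeR and the build mm10 come from the submitters' processing notes; aligner, annotation and treatment of multiply matching reads were not given in the sources used here. For each library the authors deposited CPM, scaled to a common total over 23480 Entrez identifiers; 23383 matched RefSeq GRCm38.p6. All non-zero values (100%) were whole multiples of 1 read within a tolerance of 0.01, so reads were recovered; amplified reads are not independent molecules, so floors cover counting error only.

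Genes were kept by filterByExpr (minimum count 10), leaving 10324. CPM were divided by TMM factors (0.964 to 1.06), and log2(CPM + 1) was fitted with limma (mean trend) on the group; the pseudocount of 1 CPM understates changes of low genes. Calls took a limma p under 0.05 after Benjamini-Hochberg adjustment across the 10324 genes. Alternatives were RLE, upper quartile and total count scaling, no filter or one of 10 CPM in 2 libraries, pseudocounts of 0.5 and 5, edgeR's quasi-likelihood test (110 genes called), DESeq2 and limma voom, all 3 on recovered reads, a block for replicate number, summing Ctla2a and Ctla2b, and leaving out each library. On simulated counts (5 runs, 200 changed genes, 10089 to 10116 genes) limma recovered 29.2% of 2-fold and 73.4% of 4-fold changes, with 7 false calls per run. Replicates differed by 12.6 (Th9) and 7.64 (Th9+TLA1) times sampling noise (chi-square per degree of freedom), so none was a copy.

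The 10 genes and the lists were chosen with earlier results of these data known. Text names all 10 genes, Foxp3, Il9, the called genes of each list or else its most abundant non-member, its 2 non-members with the largest change, and the 3 genes closest to the member with the smallest p; others were named after their values were seen. Some genes that this rule names are not reported here. Trac was not matched. Fits used limma 3.58.1 in R 4.3.3, with edgeR 4.0.16 and DESeq2 1.42.0. Tables, sequences and figures used pandas 2.3.3, Biopython 1.88 and matplotlib 3.10.9 in Python 3.11.15.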

Additional observations from a re-analysis of the deposited data

How the results depend on the processing

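Over the alternatives run, Tgfb1, Tgfbr1, Tgfbr2, Smad7, Pmepa1 and Ctla2b kept their direction and stayed uncalled. Inhba kept its direction and lost its call with no filter (log2 fold change 2.09). Ctla2a kept its direction and lost its call with total count scaling (0.89), no filter (0.98), a pseudocount of 0.5 (0.99), edgeR (0.96) and the summed copies (0.97). Of the 10 genes, 1 was called with total count scaling, a pseudocount of 0.5 or edgeR, and 0 with no filter. Over all genes, 118 were called, against 73 with total count scaling (median of all genes shifted to -0.10), 33 with no filter (13947 genes tested), 275 with DESeq2 and 225 with the replicate block. The cause of these differences was not tested.

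With 1 library left out, the low-count filter was re-run; added after seeing the data, the same fits were repeated on the same 10324 genes. The first called 19 to 155 genes in all and the second 31 to 312 (without Th9 replicates 1 and 2), 61 and 233 (without Th9+TLA1 replicates 1 and 2); each called 0 to 2 of the 10. Log2 fold changes were 1.75 to 2.44 for Inhba (1.76 to 2.44 in the repeats) and 0.68 to 1.30 for Ctla2a (1.04 in the repeat without Th9+TLA1 replicate 1). Those of Smad3 were -0.13 to 0.93 and of Skil -0.29 to 0.025 (0.022 in the repeat), changing sign without Th9+TLA1 replicate 1 and Th9 replicate 2. In the repeats Inhba was called without Th9 replicate 2 (adjusted p = 0.0188) and without Th9+TLA1 replicate 2 (0.0410) and lost its call without Th9+TLA1 replicate 1 (0.0890), the opposite of the filter re-run in each case; Ctla2a was called without Th9 replicate 2 (0.00287) and not without Th9+TLA1 replicate 1 (0.127), also the opposite. The lone library left in a group is assumed to vary like the other group. No label says that same-numbered libraries share an animal or day, so the replicate numbers were not taken as pairs. Their deviations were also not correlated (-0.01). With the block, which leaves fewer residual degrees of freedom than the main fit, both Inhba and Ctla2a were called (log2 fold changes 2.09 and 0.99).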

Other observations

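Proteins of the Ctla2 family inhibit cathepsin L-like proteases. Of 16 listed genes for cathepsins and their inhibitors 11 passed the filter. After scaling 7 lay above both Th9 libraries and 2 below both, where 23.7% of all tested genes lay above and 23.7% below. The 7 mix the inhibitor genes Cst3, Cst7 and Cstb with the cathepsin genes Ctsb, Ctsd, Ctsz and Ctsa. The 2 lower were the cathepsin genes Ctsc and Ctsw, and Ctsl and Ctss overlapped. The median log2 fold change of the 11 was 0.57, beside -0.01 for all tested genes. Limma called 0 of them over all genes (8 at an unadjusted p under 0.05, beside 16.7% of all genes); edgeR and limma voom called 0 and DESeq2 called 1, Ctsb. Ctsb, which encodes cathepsin B, had 284 and 370 CPM in Th9 and 555 and 446 with TL1A (log2 fold change 0.71 ± 0.20, limma adjusted p = 0.127), on a locus that overlaps Fdft1. Ctsa, which encodes the lysosomal protective protein cathepsin A, had 64.6 and 89.0 CPM in Th9 and 144 and 97.4 with TL1A (limma adjusted p = 0.206), on a locus that overlaps Neurl2 and Pltp. Ctsl, which encodes cathepsin L itself, had 36.4 and 46.1 CPM in Th9 and 51.4 and 38.3 with TL1A, and the groups overlapped (limma adjusted p = 0.796).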
